A study of Mus musculus with 16 samples.

Results

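Chromatin around 10 immediate early and proliferation genes (Fos, Jun, Junb, Egr1, Atf3, Myc, Ccnd1, Klf6, Gadd45b and Cdkn1a) was examined for open regions in liver from both sexes of 2 mouse strains. Every DNase hypersensitive site (DHS) that overlapped a gene or the 20 kb on either side of it was taken as a member, and DHS from different lists were joined where they shared 1 bp or more. This gave 43 regions among the 51482 regions of the 4 lists joined. DNase-seq locates open chromatin as the places where the enzyme DNase I cuts nuclei most often, and nuclei here were purified from liver and digested with 32 units of the enzyme. Mice were 8 weeks old, and the groups were male B6, female B6, male CAST and female CAST. B6 is C57BL/6J, the common inbred laboratory mouse whose genome is the reference, and CAST is CAST/EiJ, inbred from wild-caught Mus musculus castaneus. The labels name no transgene or treatment, and each group had 4 libraries that were pooled before peaks were called. There was therefore 1 list per group and no spread between animals, so values are compared as single measurements with the counting error of their reads and with the share of all regions that behaved the same way.

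Immediate early genes are transcribed within minutes of a growth, stress or hormone signal without new protein synthesis, and their promoters are commonly open before the signal arrives. Fos, Jun, Junb and Atf3 encode leucine zipper proteins that pair to form AP-1 and related factors, while Egr1 and Klf6 encode zinc finger factors. Myc and cyclin D1 (Ccnd1) carry cells into the division cycle, Gadd45b acts in stress signalling and p21 (Cdkn1a) holds the cycle back. In liver these genes are known for their response to partial removal of the organ, injury and feeding, whereas hepatocytes of an adult at rest seldom divide.

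The genome sequence at the DHS the results turn on is shown first, from the mm9 reference and therefore as in B6, on the strand of the gene and ending before its first annotated start site where it is a promoter. Capitals mark letters that a search found on either strand, and a match is a description of the letters only. Searched were the AP-1 site TGANTCA, the cyclic AMP element TGACGTCA and its core TGACG, the E-box CACGTG, the GC box GGGCGG, the CCAAT box CCAAT, the STAT element TTCNNNGAA, the CArG box that binds serum response factor, the p53 element, and TATAAA on the strand of the gene only. The core TGACG lies within the full cyclic AMP element, so its matches would include those of the latter. The Fos promoter, the start-site DHS with the highest mean fold enrichment, is shown with its CArG box, 3 TGACG cores, GC box and TATAAA. The Jun, Junb, Klf6 and Gadd45b promoters are shown for their CCAAT boxes, and for the TGACG core, GC boxes, E-boxes and TATAAA where present.
Fos promoter (mm9 chr12:86814518-86814817, plus strand): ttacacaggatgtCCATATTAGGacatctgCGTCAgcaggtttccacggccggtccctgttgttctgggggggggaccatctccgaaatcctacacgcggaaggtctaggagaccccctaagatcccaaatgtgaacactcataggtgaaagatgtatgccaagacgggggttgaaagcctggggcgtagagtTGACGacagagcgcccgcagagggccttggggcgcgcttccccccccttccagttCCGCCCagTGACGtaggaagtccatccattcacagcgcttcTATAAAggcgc
Jun promoter (mm9 chr4:94718914-94719063, minus strand): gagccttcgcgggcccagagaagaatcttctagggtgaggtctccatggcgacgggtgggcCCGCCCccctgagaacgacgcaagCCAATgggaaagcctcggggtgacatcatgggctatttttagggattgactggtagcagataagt
Junb promoter (mm9 chr8:87502618-87502767, minus strand): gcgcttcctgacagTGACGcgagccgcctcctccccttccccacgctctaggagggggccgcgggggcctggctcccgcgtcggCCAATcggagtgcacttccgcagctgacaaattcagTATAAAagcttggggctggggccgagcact
Klf6 promoter (mm9 chr13:5860585-5860734, plus strand): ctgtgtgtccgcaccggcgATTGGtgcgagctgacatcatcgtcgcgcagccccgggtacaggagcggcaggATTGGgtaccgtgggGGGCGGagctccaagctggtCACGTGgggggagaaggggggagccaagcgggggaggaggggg
Gadd45b promoter (mm9 chr10:80392636-80392835, plus strand): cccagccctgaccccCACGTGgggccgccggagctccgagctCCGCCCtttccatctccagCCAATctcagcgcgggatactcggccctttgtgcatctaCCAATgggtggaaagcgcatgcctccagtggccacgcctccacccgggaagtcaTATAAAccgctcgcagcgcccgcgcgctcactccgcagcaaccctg

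A further set of windows is centred on the median summit, the position of the highest pileup of reads. Myc is shown because its start-site DHS was less enriched in male CAST than in male B6, with its GC boxes in capitals. The Fos +12.2 kb window holds a CArG box close to its summit, with a TGACG core and 2 GC boxes. The Cdkn1a +3.6 kb window, the strongest DHS of that gene by pileup, holds an AP-1 site. The Klf6 -16.2 kb DHS, found in males only, holds 2 AP-1 sites and a STAT element. The Ccnd1 -3.5 kb DHS, found in CAST only, holds an E-box and a GC box. In the Gadd45b -15.7 kb window, which was more enriched in CAST, none of the searched letters were found in the bases shown, and capitals mark the 21 bases around the summit.
Myc start-site DHS (mm9 chr15:61816773-61816923, plus strand): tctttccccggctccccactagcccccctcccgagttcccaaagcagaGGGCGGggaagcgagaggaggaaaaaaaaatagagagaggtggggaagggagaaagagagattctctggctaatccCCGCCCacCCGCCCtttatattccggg
Fos +12.2 kb DHS (mm9 chr12:86827012-86827162, plus strand): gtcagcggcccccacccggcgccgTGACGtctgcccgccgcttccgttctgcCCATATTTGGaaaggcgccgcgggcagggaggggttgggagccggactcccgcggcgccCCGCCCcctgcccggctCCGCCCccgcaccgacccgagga
Cdkn1a +3.6 kb DHS (mm9 chr17:29231442-29231592, plus strand): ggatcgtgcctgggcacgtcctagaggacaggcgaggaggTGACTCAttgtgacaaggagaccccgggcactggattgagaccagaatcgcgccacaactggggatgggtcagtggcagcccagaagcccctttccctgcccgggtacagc
Klf6 -16.2 kb DHS (mm9 chr13:5844504-5844654, plus strand): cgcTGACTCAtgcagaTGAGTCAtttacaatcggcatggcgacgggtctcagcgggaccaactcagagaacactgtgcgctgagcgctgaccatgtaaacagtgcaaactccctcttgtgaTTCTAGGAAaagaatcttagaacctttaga
Ccnd1 -3.5 kb DHS (mm9 chr7:152129149-152129299, minus strand): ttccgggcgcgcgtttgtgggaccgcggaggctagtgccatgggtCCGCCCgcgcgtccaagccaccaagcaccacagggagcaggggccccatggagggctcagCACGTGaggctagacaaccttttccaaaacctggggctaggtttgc
Gadd45b -15.7 kb DHS (mm9 chr10:80377052-80377202, plus strand): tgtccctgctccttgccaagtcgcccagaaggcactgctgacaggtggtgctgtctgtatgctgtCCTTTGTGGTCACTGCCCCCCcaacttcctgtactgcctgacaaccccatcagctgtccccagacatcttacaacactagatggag

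The lists held 24888 to 39562 DHS and differed in depth, which can bear on any presence or absence below. The genome-wide background, the number of fragments that overlap an average position, was 15.4 for male and 13.9 for female B6, and 14.3 for male and 7.94 for female CAST. Median fold enrichment over all DHS, in the same order, was 3.49, 3.28, 3.74 and 4.06. Of 10 hepatocyte marker genes 7 had a start-site DHS in all 4 lists. None of 6 Kupffer cell or 5 lymphocyte markers had a start-site DHS in any list. A start-site DHS in all 4 lists was found for 1 of 6 sinusoidal endothelial, 0 of 5 stellate and 1 of 4 bile duct markers. The endothelial markers had a start-site DHS for 6 genes in the male and 3 in the female B6 list and for 2 in each CAST list, and whether this bears on the member genes was not tested. In bulk liver, fewer cells with an open site and less opening per cell cannot be told apart.

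Start-site DHS were present in all 4 lists for 7 of the 10 genes, namely Fos, Jun, Egr1, Atf3, Myc, Klf6 and Gadd45b. The same held for 40.6% of 22367 protein-coding genes, while 50.6% had a start-site DHS in no list. Junb lacked its start-site DHS in female CAST. Cdkn1a had a DHS over 1 of its internal start sites in male B6 alone, and Ccnd1 had none over either of its 2 start sites. Each gene had between 1 (Jun) and 10 (Junb) regions in its window, with a median of 4 against 2 for all protein-coding genes. The 10 regions of Junb placed it at percentile 96.2 of genes, and 3 of them lay over the start sites of its close neighbours Rnaseh2a, Prdx2 and Hook2.

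Of the 43 regions 20 (46.5%) were found in all 4 lists, against 35.6% of all regions. A single list held 8 regions (18.6%), against 35.2% of all regions. Both male lists and no female list held 4 regions (9.30%, against 9.38%), and none was found in the female lists alone, against 0.0622%. The B6 lists alone held 2 regions (4.65%, against 3.32%) and the CAST lists alone held 2 (4.65%, against 3.62%). In B6 the male list had 40 of the 43 regions (93.0%, against 74.6% of all regions) and the female list 28 (65.1%, against 50.0%). In CAST these were 33 (76.7%, against 76.2%) and 24 (55.8%, against 47.3%). The shares limited to a sex or a strain were near those of the whole genome. The ordering of the lists followed their numbers of DHS except that male B6 had more member regions than the longer male CAST list.

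**Figure D1:**
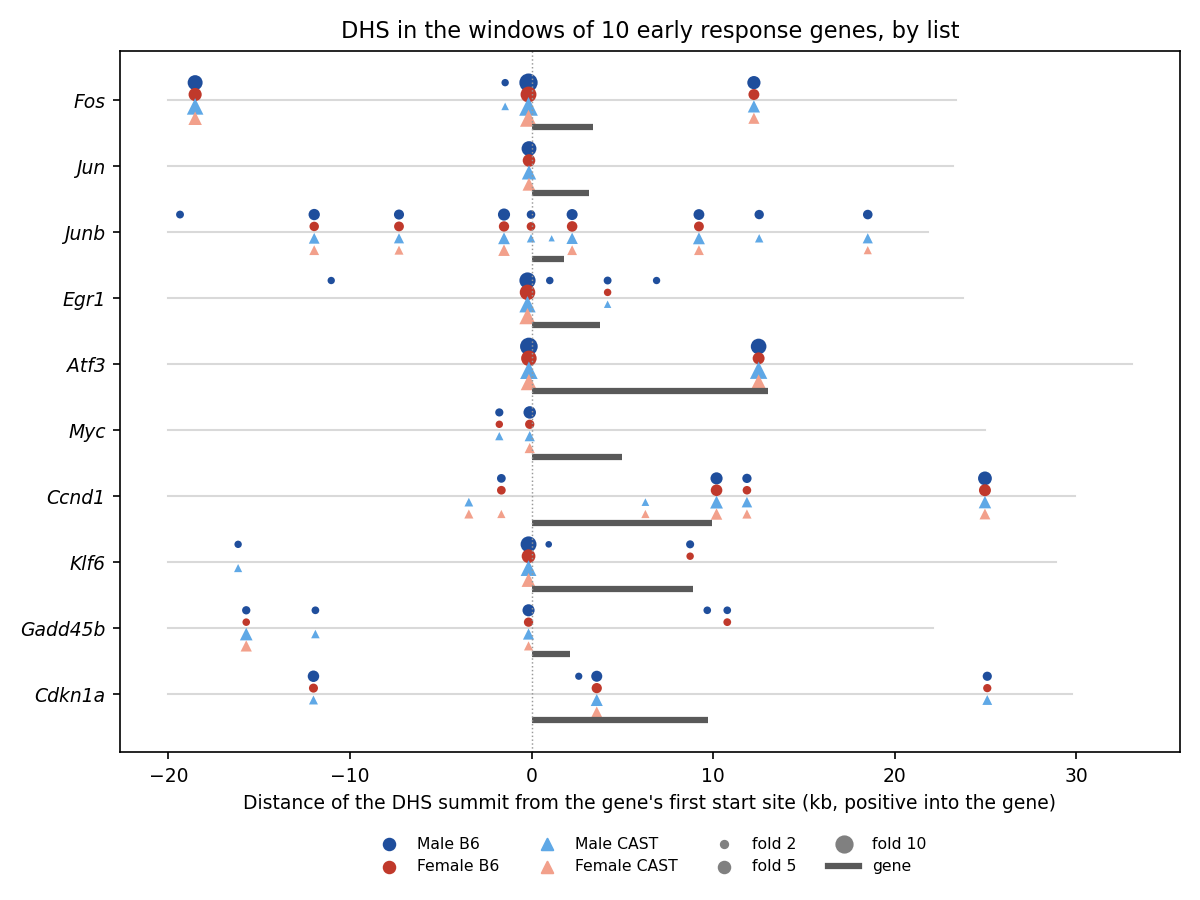
Positions of the 43 DHS regions by distance of the median summit from the first start site of each gene (kb, x axis), with 1 row per gene and 1 symbol per list. Symbol area follows fold enrichment, dark bars show the gene and grey lines its window; symbols of all 4 lists stand at the start sites of 7 genes and at 13 other regions, such as Fos -18.5 kb and Atf3 +12.5 kb, and the regions of 1 or 2 lists have small symbols.

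Among the AP-1 genes, Fos had the most enriched start-site DHS of all members. Its fold enrichment over local background, the height of the summit relative to nearby sequence, was 12.9 for male and 9.68 for female B6, and 13.4 for male and 11.1 for female CAST. The region lay at chr12:86814195-86815109 with its summit at -165 bp from the start site, and the summits of the 4 lists were within 25 bp of each other. It ranked between percentiles 97.7 and 98.7 of all DHS in the 4 lists. Male values were higher than female values in both strains, and relative to the median ratio of all regions found in both lists male over female was 1.01 in B6 and 1.02 in CAST.

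Fos had strong DHS on either side as well. The -18.5 kb DHS (chr12:86795763-86796754, intergenic) had fold enrichment of 8.62 and 6.64 in B6 and 10.5 and 6.98 in CAST, the male before the female. The +12.2 kb DHS (chr12:86826644-86827440, intergenic) had 6.73, 4.60, 5.77 and 4.78 in that order, which is also the order used below. Both were in all 4 lists and neither passed a 1.5-fold difference in any comparison. A weak DHS at -1.5 kb was found in both male lists, with 2.102 for B6 and 2.23 for CAST, but was called in neither of the female lists.

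Jun, the partner of Fos in AP-1, had a single DHS in its whole window, over its start site (chr4:94718538-94720568). Its fold enrichment was 8.48, 6.06, 7.90 and 6.41, and the summits of the 4 lists fell within 15 bp, the closest of the 20 regions in all lists. The joined region was 2031 bp wide, the widest of the 43, and its summit lay within an intron of the divergent gene BC042782. Reads from the promoters of both genes cannot be told apart in this region.

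Junb, another AP-1 partner, stood in a stretch of many DHS with raised background. Its start-site DHS (chr8:87502404-87502839) had a fold enrichment of 2.85 and 2.91 in male and female B6 and 2.70 in male CAST, and female CAST had no call. The pileup there was high, with 255 fragments in male B6, but so was the local background of 88.9 against 15.4 genome-wide. By pileup the region was at percentile 89.4 of the male B6 list and by fold enrichment at percentile 34.3. More enriched DHS flanked it in all 4 lists, at -1.5 kb with 5.66, 4.11, 5.36 and 5.12 and at +2.2 kb with 4.70, 4.28, 5.01 and 3.70. The Junb start site thus carried a called DHS in 3 lists and lay between DHS called in all 4.

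Atf3, a stress-induced partner of the AP-1 proteins, had 2 DHS and both were in all 4 lists. The start-site DHS (chr1:193006575-193007941) had fold enrichment of 11.96, 9.24, 11.9 and 10.2. The +12.5 kb DHS (chr1:192994397-192995126), over a UTR exon near the end of the gene, had 9.37, 5.48, 11.6 and 9.26. Female B6 had the lowest value at both sites, and the gap was wider at the end of the gene than at the start. That list also had the lowest median fold, and at the start site centring removed the gap. There male over female in B6 was 0.981 and CAST over B6 in females was 0.931 relative to the median. Relative to the median of all regions, CAST was 1.42 times B6 in females (counting interval of 95%, 1.06 to 1.92) at the +12.5 kb DHS and 1.17 times B6 in males (0.958 to 1.44), both short of 1.5.

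The zinc finger genes Egr1 and Klf6 had strong start-site DHS with few other regions of note. Egr1, a mediator of growth signals, had fold enrichment of 10.1, 9.24, 10.3 and 10.2, the narrowest relative spread of the start-site DHS found in all lists. Its summit pileups of 875, 447, 752 and 293 fragments were the highest of all member regions in every list, at percentiles 99.5 to 99.8. Male over female ratios, relative to the median of all regions, were 0.830 (0.740 to 0.933) in B6 and 0.847 (0.741 to 0.975) in CAST. Among the start-site DHS found in all 4 lists this was the lowest ratio in B6 and the lowest after Myc in CAST, and both were short of 1.5-fold. The other 4 regions of its window had folds from 2.07 to 2.40, and 3 of them were found in male B6 alone.

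Klf6, a growth-restraining factor of the Krüppel family, had a start-site DHS (chr13:5860106-5861081) with fold enrichment of 9.71, 7.26, 9.58 and 7.46. Its remaining 3 regions were weak, and each was restricted to 1 sex, 1 strain or 1 list. The -16.2 kb DHS (chr13:5844496-5844848, intergenic) was found in male B6 at 2.11 and in male CAST at 2.55. A DHS at +8.7 kb (chr13:5869370-5869640), over a UTR exon at the end of the gene, was found in male B6 at 2.50 and in female B6 at 2.14.

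The start-site DHS of Myc was of intermediate strength and varied more between lists than those above. Myc, a driver of cell growth, had fold enrichment of 6.00, 3.33, 4.02 and 4.02 at its start site (chr15:61815915-61817378). Male B6 stood above the 3 other lists, which lay close to each other. CAST over B6 was 0.635 (0.507 to 0.789) in males, past the 1.5-fold limit in the direction of B6, and 1.02 (0.713 to 1.44) in females. Male over female was 1.37 (1.06 to 1.81) in B6 and 0.840 (0.622 to 1.17) in CAST. Without centring at the median the male strain ratio was 0.670, short of the limit, and the difference between males and females was not tested. The only other DHS of Myc, at -1.8 kb, had 2.58, 2.12 and 2.63 and was not called in female CAST.

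Ccnd1, which encodes the D-type cyclin that opens the division cycle, had no DHS over a start site in any list. The nearest, at -1.7 kb (chr7:152127252-152127885, intergenic), had fold enrichment of 2.94 and 2.93 in the male and female B6 lists and 2.60 in female CAST, with no call in male CAST. The most enriched region of the window by mean fold lay at +25 kb, over the start site of the neighbour Oraov1 (chr7:152100649-152101540), at 7.32, 5.51, 5.96 and 4.52. The next, at +10.2 kb past the end of Ccnd1 and in a UTR exon of Oraov1, had 5.66, 5.18, 6.33 and 5.04. The most enriched DHS of the window were thus over Oraov1 and not at the Ccnd1 promoter.

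Among the genes of stress and arrest, Gadd45b, a stress sensor of the growth arrest family, had a start-site DHS (chr10:80391391-80393088) with fold enrichment of 5.64, 3.34, 4.81 and 3.20. Both males exceeded both females, at 1.28 (0.966 to 1.74) times the median ratio in B6 and 1.27 (0.887 to 1.90) in CAST, which covers 1 in each strain. The -15.7 kb DHS (chr10:80376690-80377661), within an intron of Lmnb2, had 2.65, 2.202, 6.20 and 4.87. Both CAST values exceeded both B6 values there, with pileups of 146 and 54 fragments in male and female CAST against 49 and 32 in male and female B6.

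Cdkn1a, whose product p21 inhibits the kinases of the cell cycle, had no DHS at its first start site. Its +3.6 kb DHS (chr17:29231214-29232793) lay within an intron, 497 bp from an internal start site of the gene. It had fold enrichment of 4.70, 4.02, 5.58 and 4.54 in the 4 lists. A weak DHS at +2.6 kb over an internal start site was called in male B6 at 2.00. The -12.0 kb DHS (chr17:29215318-29216281), at the start site of the noncoding gene Gm16197, had 5.07, 3.15 and 3.08 and was not called in female CAST. Male B6 was again the highest list, and CAST over B6 in males was 0.576 (0.389 to 0.828). A region at +25.1 kb within Gm16194 was likewise absent from female CAST alone, with 3.24, 2.61 and 3.74.

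**Figure D2:**
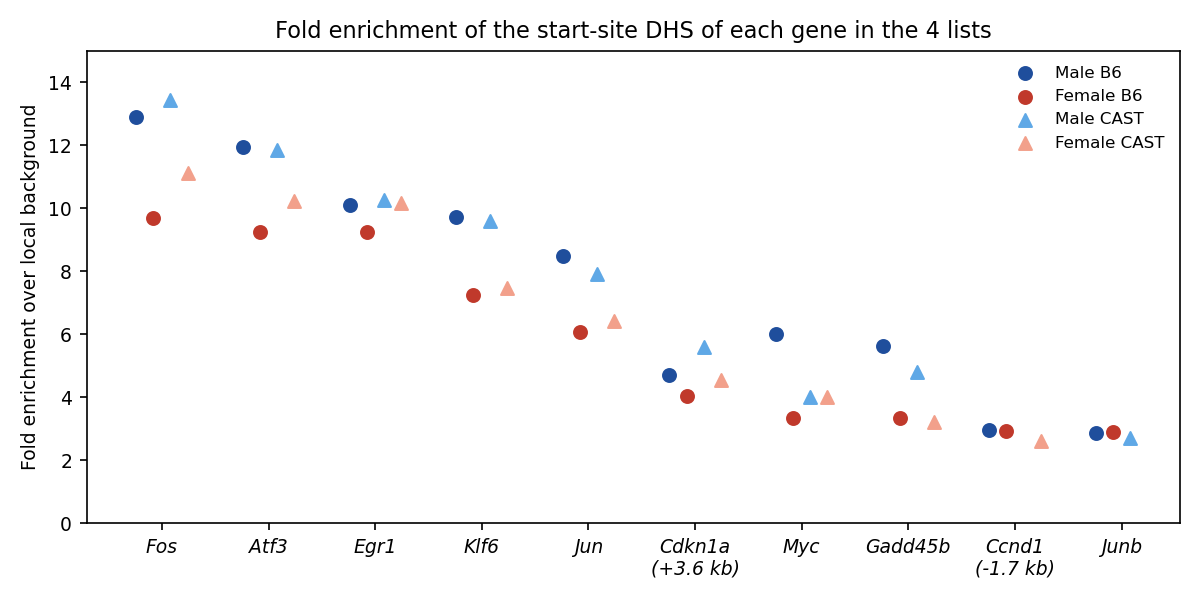
Fold enrichment over local background (y axis) of the start-site DHS of each gene, ordered by mean, with 1 symbol per list; for Cdkn1a and Ccnd1 the nearest DHS found in more than 1 list is shown at the distance given. Fos, Atf3 and Egr1 lie between 9.24 and 13.4, and Junb, found in 3 lists, lies between 2.70 and 2.91.

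Ordered by mean fold, the start-site DHS ran from Fos through Atf3, Egr1, Klf6, Jun, Myc and Gadd45b to Junb. From Fos to Jun this order held within each of the 4 lists, although the ranges of neighbours over the lists overlapped. The closest values were 9.244 for Atf3 and 9.237 for Egr1 in female B6. Myc was above Gadd45b in male B6 and female CAST and below it in female B6 and male CAST. Differences between genes were not tested. The lowest value of Jun (6.06) was just above the highest of Myc (6.00), and all values of Junb were below those of Gadd45b. In male B6 the median start-site DHS of the members was at percentile 91.7 of fold enrichment, against 74.8 for the start-site DHS of all protein-coding genes. For female B6 these medians were 90.8 and 69.7, for male CAST 90.5 and 72.9, and for female CAST 87.9 and 66.4. The members' medians cover only genes with a start-site DHS in the list, 9, 8, 8 and 7 in list order, so the genes differ between lists. In male B6 they include the Cdkn1a +2.6 kb DHS at percentile 3.43. Ranked by pileup instead, the members' medians were 95.4 to 96.3. In male B6 the largest shift was at Junb, from percentile 34.3 to 89.4, where the local background was 88.9. Egr1, with a background of 85.6, moved only from 95.6 to 99.8.

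**Figure D3:**
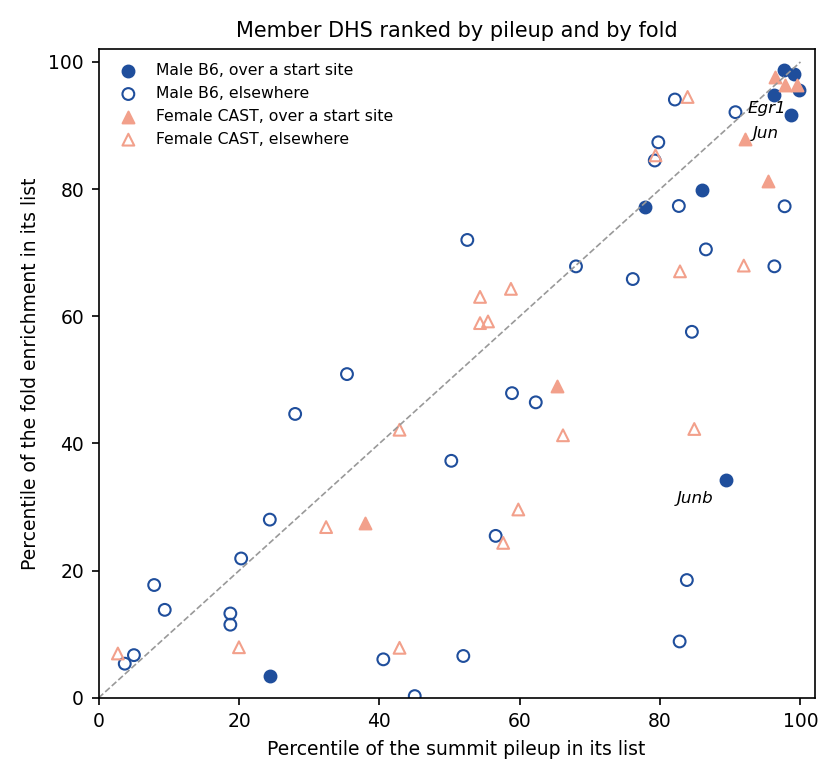
Percentile of each member DHS in its own list by summit pileup (x axis) and by fold enrichment (y axis), for male B6 (circles) and female CAST (triangles), filled where the DHS covers a member's start site. Points under the dashed line of equality have raised local background, such as Junb in male B6 at 89.4 by pileup and 34.3 by fold.

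The comparison between the sexes asked which member DHS differed in enrichment between male and female liver. Ratios of fold enrichment were divided by the median ratio over all regions found in both lists, which was 1.32 in B6 and 1.19 in CAST. None of the 28 member regions found in both B6 lists passed a 1.5-fold difference, against 2.62% of all regions with the male higher and 2.60% with the female higher. None of the 23 found in both CAST lists passed it, against 3.31% and 2.56%. The members' ratios ran from 0.739 to 1.37 in B6 and from 0.734 to 1.31 in CAST. No member region differed by 1.5-fold toward the same sex in both strains, against 0.513% of all regions found in all 4 lists. Each of these shares amounts to fewer than 1 region among the members, so the counts of 0 do not set them apart.

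The comparison between the strains asked the same of B6 and CAST within each sex, with median ratios of 1.06 in males and 1.19 in females. Among males, 1 of 30 member regions was at least 1.5-fold higher in CAST (6.68% of all regions) and 2 were higher in B6 (4.49%). In females 1 of 21 was higher in CAST (4.97%) and none was higher in B6 (3.42%). The region higher in CAST was in both sexes the Gadd45b -15.7 kb DHS, at 2.21 (1.61 to 3.17) in males and 1.86 (1.20 to 3.02) in females. It was the single member region past the limit in the same direction in both sexes, a behaviour seen toward CAST for 2.18% and toward B6 for 0.863% of the regions in all 4 lists. With a limit of 2 the call held in males and ended in females. With a stricter peak threshold (−log10 q of at least 15.7, the median of all DHS) the region could not be compared in either sex, nor in females with an overlap of 50%, since no joined region then held peaks of both lists. The regions higher in B6 were the Myc start-site DHS and the Cdkn1a -12.0 kb DHS, both in males only, and the latter was not called in female CAST. The ratio of Cdkn1a stayed at or below 0.608 without centring and by pileup, but neither call held with a limit of 2, and the stricter threshold left no Cdkn1a ratio.

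**Figure D4:**
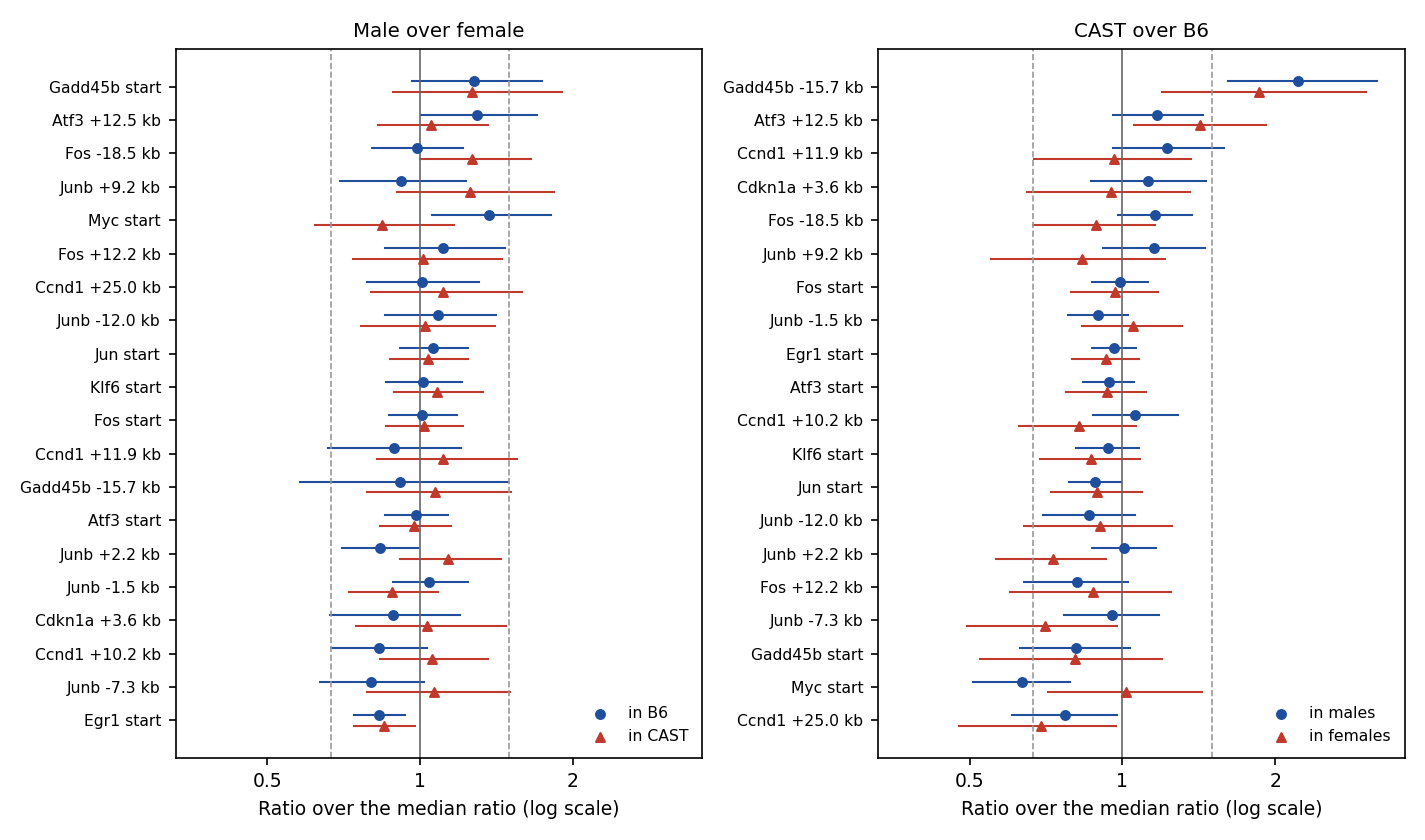
Ratios of fold enrichment divided by the median ratio of all regions (x axis, log scale) at the 20 member regions found in all 4 lists, male over female on the left (circles B6, triangles CAST) and CAST over B6 on the right (circles males, triangles females). Bars are counting intervals of 95%, dashed lines mark 1.5-fold either way, and the Gadd45b -15.7 kb DHS lies beyond the line in both sexes on the right while the Myc start-site DHS does so in males.

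Regions limited to a sex or a strain had fold enrichment of 2.102 to 3.38, each below the median of its list. The 4 regions found in both male lists alone were Fos -1.5 kb, Junb +12.5 kb, Klf6 -16.2 kb and Gadd45b -11.9 kb. Junb +12.5 kb, at the start site of Rnaseh2a, was the most enriched at 3.38 in male B6 and 2.72 in male CAST. Gadd45b -11.9 kb, at a start site of Lmnb2, had 2.29 in male B6 and 2.80 in male CAST. In lists cut to equal size none of the 4 stayed limited to males. The cut only takes DHS away, so male DHS were lost there and no female DHS was gained.

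The 2 regions found in both CAST lists alone belonged to Ccnd1. The DHS at -3.5 kb (chr7:152129046-152129519, intergenic) had fold enrichment of 2.92 in male and 3.17 in female CAST. The DHS at +6.3 kb (chr7:152119310-152119670), within an intron of Ccnd1, had 2.27 and 2.60. The B6 lists alone held Klf6 +8.7 kb, described above, and Gadd45b +10.8 kb (chr10:80403396-80403751, intergenic) at 2.27 in male and 2.33 in female B6. None of these 4 regions stayed limited to its strain with the stricter threshold or in lists of equal size. Both settings only take DHS away, so neither gave the other strain a DHS there. The stricter threshold removed all their peaks, whose −log10 q was 2.58 to 9.70, and so could not test the limitation. Under both of these settings Gadd45b -15.7 kb was found in CAST alone instead, since its B6 DHS were taken away.

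Absence from a list was compared with the depth of that list. The peak of another list of the same sex or strain was rescaled to the background and median fold of the list that lacked it, and its −log10 p was set beside the weakest that list held. For Ccnd1 -3.5 kb the rescaled −log10 p was 11.3 in male B6 and 9.98 in female B6, above the weakest values of 3.31 and 3.56, and for Ccnd1 +6.3 kb it was 10.1 and 8.03. For Klf6 -16.2 kb the values were 2.097 in female B6 and 3.43 in female CAST, under the weakest of 3.56 and 3.55, so its absence from females was not distinguishable at this depth. Fos -1.5 kb and Gadd45b -11.9 kb fell under the weakest value in female B6, at 3.48 and 2.69, and exceeded it in female CAST, at 4.01 and 5.45. Junb +12.5 kb exceeded it in both, at 11.5 and 5.01. For the B6-limited regions it was 8.82 in male and 5.17 in female CAST at Klf6 +8.7 kb, and 7.36 and 5.97 at Gadd45b +10.8 kb. These exceeded the weakest values of 3.33 and 3.55. At the Junb start site, missing from female CAST, it was 11.9 from male CAST and 24.3 from female B6. Over all member absences 35 of 46 comparisons exceeded the weakest value, so exceeding it does not set these regions apart. These predictions carry the counting error of the peak they start from.

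The 8 regions in a single list were weak. Male B6 held 7 of them, with fold enrichment from 1.68 to 2.38, and male CAST held 1, within the coding exon of Junb at 1.51. Over the genome male B6 held 40.5% and male CAST 43.3% of regions found in 1 list.

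Widths differed between lists at the regions found in all 4, and at Gadd45b -15.7 kb the peaks were 672, 241, 972 and 603 bp wide. Median peak width of the 20 member regions was 885 bp for male and 710 bp for female B6, and 824.5 bp for male and 707 bp for female CAST. All such regions had 803, 646, 788 and 599 bp. Summits of the 4 lists lay a median of 60.5 bp apart, against 91 bp, and within 100 bp for 14 of 20 regions, against 54.5%. The widest separation, of 939 bp, was at Junb -12.0 kb, a broad region over the start site of Hook2 in which different lists placed the summit at different parts.

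The GC box was the commonest of the searched letters at the members. Within 300 bases centred on the summit, 23 of 43 member regions (53.5%) held a GC box, against 20.2% of all regions of that length. A CArG box was found in 4 (9.30%), at the start-site DHS of Fos and Egr1, at Fos +12.2 kb and at Junb -1.5 kb, against 1.45% of all regions. The TGACG core was found in 11 (25.6%, against 16.9%), the E-box in 6 (14%, against 7.15%) and the CCAAT box in 14 (32.6%, against 35.5%). The AP-1 site was found in 4 (9.30%, against 9.34%), and the STAT element in 3 (6.98%, against 9.98%). No member region held the full cyclic AMP element (1.06% of all) or the p53 element (0.0894% of all), and 3 held TATAAA (6.98%, against 7.10%). Members and all regions were not matched for nearness to start sites, where GC boxes are common.

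In the 250 bases before the first start site, GC boxes were found for 7 of 10 genes (39.6% of all protein-coding genes) and CCAAT boxes for 5 (35.0%). The TGACG core was found for 4 of the 10, Fos, Junb and Egr1 among them (40%, against 19.4%), TATAAA before Fos, Junb and Gadd45b (30%, against 8.35%), and the E-box before Klf6 and Gadd45b (20%, against 6.52%). The CArG box was found before Egr1 (10%, against 1.34%), and the p53 element before Cdkn1a (10%, against 0.0313%), where no list had a DHS. The CArG box of the Fos promoter lay farther upstream. No member had an AP-1 site (6.01% of all), the full cyclic AMP element (1.91%) or a STAT element (6.83%) in this stretch. Of the AP-1 genes Fos and Junb thus held a TGACG core, and none held an AP-1 site.

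Other genes of the same pathways were described by lists. Of 50 other genes, taken from early genes, their families and their partners, 37 (74.0%) had a start-site DHS in all 4 lists. This compares with 40.6% of all genes, and the 50 were not limited to immediate early genes. They comprised 13 of 18 AP-1 and ATF partners, 10 of 14 genes of the Egr, SRF and Klf families and 14 of 18 other early genes. Among the AP-1 partners Atf7, Batf, Batf3, Fosl1 and Jdp2 had no start-site DHS in any list, as did Egr3 and Egr4 in the next list and Nr4a3 in the last. Of 46 genes of the Myc network and cell cycle 30 (65.2%) had a start-site DHS in all 4 lists. These were 8 of 10 Myc network genes, 8 of 11 cyclins and kinases, 4 of 9 inhibitors and 10 of 16 genes of replication and mitosis. Mycn, Ccnd2, Cdkn2a, Cdkn2d and Aurkb had none in any list. For replication and mitosis the count was 15 in each of the 3 deeper lists and 10 in female CAST. Of all protein-coding genes 48.1%, 44.5% and 47.5% had a start-site DHS in the deeper lists and 42.1% in female CAST.

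Few start-site DHS of these lists passed 1.5-fold. Among the early genes, families and partners none of 39 was higher in males and 2 were higher in females in B6. In CAST none of 38 was higher in males and 1 in females. CAST was higher at 1 and B6 at 2 of 40 in males, and none of 37 differed in females. Among the Myc network and cell cycle genes 1 of 40 was higher in B6 in males and none passed in the 3 other comparisons. The shares of all regions that passed are those given above for the members.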

How the data were processed

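DNase-seq of liver nuclei was represented by 4 deposited DHS lists, each called by the authors on 4 pooled libraries of a sex and strain. The authors mapped B6 reads with Bowtie2 to mm9 and CAST reads to mm9 carrying CAST variants, converted CAST coordinates back to mm9, called peaks with MACS2 and removed blacklisted regions. The deposited values per peak are the fold enrichment (a ratio of summit pileup to local background, each with a pseudocount of 1), the −log10 p and −log10 q, and the summit offset in bp. Bowtie2, MACS2 and mm9 are named in the submitters' processing notes.

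Peaks overlapping by at least 1 bp were joined, and genes, start sites and exons came from GENCODE vM1 on NCBIM37, the same assembly as mm9. The summit pileup and local background, and with them the depth, were recovered from fold and p. The pileups were whole within 0.02 for 99.86% of peaks or more in each list. Counting intervals of 95% are exact conditional binomial intervals of 2 pileups, cover counting error only and treat overlapping fragments as independent. With 1 list per group no test between animals was possible, and a ratio of 1.5 relative to the median of all regions was used as the limit. Coordinates count from 1. The sequence of 1 promoter is not reported here.

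Described singly were the start-site or nearest DHS of each gene, the strongest other DHS, every sex- or strain-limited DHS and every DHS past the limit in both strains or sexes. Others named singly, and the gene names in the closing section, were chosen after their values were seen. The genes, lists and rule were chosen with earlier results of these data known. Alternatives changed the overlap, window, threshold, list size, depth, centring, measure and limit. Joining, recovery and ratios were tested on simulated data. Computation used Python 3.11.15, numpy 2.4.6, pandas 2.3.3, scipy 1.17.1 and matplotlib 3.10.9.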

Additional observations from a re-analysis of the deposited data

How the results depend on the processing

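The 7 genes with a start-site DHS in all 4 lists became 6 with a stricter threshold (25.2% of all protein-coding genes) and 8 with DHS within 1 kb counted (42.6%). They stayed 7 in depth-scaled lists (40.5%) and lists of equal size (39.1%). The 43 regions became 26 with the stricter threshold and 31 to 48 under the other alternatives. The count of male-limited regions, 4 as reported, was 1 with a window of 10 kb (9.38% of all regions), 2 with the stricter threshold (20.2%) and 0 in lists of equal size (2.29%). The count limited to B6, 2 as reported, was 0 with the stricter threshold (1.44%), 1 in lists of equal size (5.64%) and 1 in depth-scaled lists (3.32%), and that limited to CAST, also 2, was 1 with the stricter threshold (2.34%) and 1 in lists of equal size (5.72%). With the stricter threshold and in lists of equal size 0 of the reported regions were among those counted. Both settings only take DHS away, so the reported regions lost DHS and were not gained by the other sex or strain. The regions counted there were Gadd45b at its start site and Ccnd1 +11.9 kb for males, Cdkn1a -12.0 kb for B6 and Gadd45b -15.7 kb for CAST. Without centring, the regions past the limit were 4 with the male higher in B6 (24.3% of all regions) and 3 in CAST (12.5%), 1 with B6 higher in males (3.17%) and 2 with CAST higher in females (14.97%). With pileup over genome-wide background, 1 region was higher in males (3.41%) and 1 in females (8.29%) in B6, 1 was higher in females in CAST (7.08%), 3 were higher in CAST in males (11.6%) and 2 in B6 in females (6.61%). By difference of percentile ranks 1 was higher in males in CAST (3.31%), and 1 was higher in B6 in males (4.49%) and 1 in females (3.42%). With a limit of 2, B6 was higher at 0 regions in males (0.801%) and CAST at 0 in females (0.785%). With the stricter threshold CAST was higher at 0 in males (4.10%) and 0 in females (2.55%) and B6 at 1 in males (2.11%). With an overlap of 50% CAST was higher at 0 in females (4.77%). Other changes left a count within 1.5 times its value in 67 of 94 cases. No called ratio changed direction. The pileup ranks were added after the data were seen.

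No paired analysis was possible because each group is 1 pooled list, which also means that no replicate was left out in turn. The female CAST list was the shallowest, with a genome-wide background of 7.94, and differences between animals are not measured.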

Other observations

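Among the other early genes, families and partners a few start-site DHS passed the 1.5-fold limit, and they are named here after their values were seen. At Ier3, an early gene of stress and survival signalling, fold enrichment was 2.1997 and 2.81 in male and female B6 and 1.92 and 2.70 in male and female CAST. Female values exceeded male values in both strains, with male over female at 0.594 and 0.599 of the median ratio in B6 and CAST, a behaviour toward the same sex seen for 0.513% of regions found in all 4 lists. At Ier2 the values were 2.08, 2.40 and 1.86 in male B6, female B6 and male CAST, with no DHS called in female CAST, and male over female was 0.656 of the median ratio in B6. Without centring at the median, Ier3 and Ier2 were short of the limit.

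Male CAST was lower than male B6 by more than the limit at Fosb, a Fos family member, with 5.03 against 7.72, and at Nr4a1, an early nuclear receptor, with 3.20 against 4.70. Relative to the median ratio these were 0.617 and 0.645, and without centring Nr4a1 was short of the limit. Ccnb1, a cyclin of mitosis, had 3.02 against 4.95, a relative ratio of 0.577. In females Fosb had 4.35 in CAST against 4.92 in B6, Nr4a1 had 3.48 against 3.39 and Ccnb1 had 3.58 against 3.82, with relative ratios of 0.746, 0.865 and 0.790. At Cyr61, an early gene that encodes a secreted matrix protein, male CAST was higher than male B6, with 6.94 against 4.07 and a relative ratio of 1.62. In females it had 5.04 against 4.03, a relative ratio of 1.05. Each value is a single pooled measurement, and the difference between the sexes in the strain ratio was not tested.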
